A study of Mus musculus with 10 samples.

Results

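The mitochondrial ribosomal protein genes were taken as every gene of the read count table whose symbol starts with Mrpl or Mrps followed by a digit and that had 10 or more reads summed over the 10 libraries. A total of 77 of the 24015 listed genes met this rule. By the role of their products, 50 encode proteins of the large subunit, 26 encode proteins of the small subunit, and 1, Mrps36, is today regarded as a subunit of the 2-oxoglutarate dehydrogenase complex. The least covered member, Mrpl23, had 246 reads over the 10 libraries, and all 77 genes passed the filter on low counts, so none was left untested.

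Mitochondria carry their own ribosome, which translates the few messenger RNAs made from mitochondrial DNA, all of them for core subunits of the respiratory chain and the ATP synthase. The ribosomal RNAs of this ribosome come from mitochondrial DNA, but every one of its proteins is encoded in the nucleus, made in the cytosol and imported. Many of these proteins belong to families shared with bacterial ribosomes and others are found in mitochondria alone. Acute myeloid leukemia cells are known for a marked reliance on mitochondrial translation.

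RNA was sequenced from MAF9 cells, which are bone marrow cells of C57BL/6 mice transduced with the MLL-AF9 fusion gene and grown with interleukin-3, so every group, the control included, carries the fusion. The cells were treated for 4 days with DMSO as the control, with MM-401 (a blocker of the interaction of MLL1 with WDR5), with EPZ5676 (labelled EPZ, an inhibitor of the methyltransferase DOT1L), with MI-2-2 (a blocker of MENIN, so named in the study's methods but MI in the sample labels and MI-2 in their protocol, and whether all mean one compound is not settled by these sources) or with iBET (a further small-molecule inhibitor). Each inhibitor was given at its own half-maximal dose, with no concentration given in the sources used here, so the groups are set side by side at a matched time and not at a matched dose. Each of the 5 conditions had 2 libraries, called replicates 1 and 2 here after their labels, and the study's methods describe them as biological duplicates. Whether the cultures were grown or treated separately is not stated, so p-values measure the spread between these libraries only.

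Library totals lay between 20394762 and 29473127 counted reads. Markers of myeloid and MLL-AF9 progenitor cells summed to between 3890 and 13730 CPM in each library (CPM, a gene's reads scaled to a common library size), with none of the 13 at 0 reads, and in every library 5 of 6 erythroid markers were at 0 reads. The 13 did not move alike. Meis1, Cd34 and Prtn3 were lower in every EPZ5676 and MI-2-2 library than in the other 6 (Meis1 0.63 to 1.62 against 35.5 to 91.9 CPM). Ptprc, Spi1, Itgam, Csf3r and Fcgr3 were higher there (Itgam 1810 to 2540 against 273 to 833 CPM). Hoxa9, Kit, Mpo, Elane and Cebpa overlapped. Marker sums for T and B cells were at most 1.9 CPM. The DMSO libraries stood apart from each other, with a correlation of 0.942 over genes on the log2 CPM scale against 0.983 to 0.992 within the other groups, and 19.3% of genes differed more than 2-fold between them against 3.42% to 6.07%. DMSO replicate 2 held 3630 reads on Y-linked genes, where every other library held 0 to 2, and 4.76 CPM of Xist against 928 to 3050 CPM elsewhere. Its sex-linked genes thus go against those of the other 9 libraries. The totals of members called with EPZ5676, MI-2-2 and iBET against DMSO are given with and without it, and beside those against MM-401. The same holds for counts of related genes with EPZ5676 and MI-2-2. Counts of members shared between comparisons, subunit splits and marker lists are given only with it. Genes of neutrophil granules moved with 2 of the groups: the 10 genes summed to 44470 to 63010 CPM in the EPZ5676 and MI-2-2 libraries, to 534.5 to 6350 CPM in the other 6, and all 10 were called higher with each of these inhibitors against DMSO. Macrophage genes went the same way (11 genes, 333.2 to 714.3 CPM against 81.78 to 134.5 CPM), with 10 of 11 called higher with each against DMSO. The sum of stromal markers reached 2.9 to 17.15 CPM against at most 1.324 CPM, and that of T cell markers 0.8826 to 1.9 CPM against at most 0.2648 CPM. That of B cell markers was 0.9412 to 1.093 CPM against at most 0.3543 CPM. The sum of mast cell and basophil markers went the other way (6.892 to 10.09 CPM against 13.48 to 20.92 CPM). These differences lay mainly in 1 gene of each list. They were Col1a1 (2.9 to 17.1 against at most 0.776 CPM) and Cd3d (0.799 to 1.87 against at most 0.265 CPM). In the other 2 lists they were Cd79a (0.941 to 1.09 against at most 0.354 CPM) and Mcpt8 (3.29 to 4.88 against 9.44 to 14.8 CPM). The mast cell and basophil marker Ms4a2 overlapped (3.36 to 5.21 against 2.48 to 9.71 CPM). The part of these genes in the results on EPZ5676 and MI-2-2 was not tested.

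Stretches before the start sites are shown first, with letters of known promoter elements marked, because many of these genes changed together. Each stretch was picked because it holds such letters. The stretches therefore cannot show how often the letters occur, or whether called and uncalled members differ in them. Other members with such letters are not shown, and many members had no match in the wider windows counted below. The 100 bases before the annotated start (RefSeq, GRCm38.p6) are given for 5 members that were called lower under each of EPZ5676 and MI-2-2, whether set against DMSO or MM-401, and for 2 members that were called in none of these 4 comparisons. Each sequence reads 5′ to 3′ on the strand of the gene, and capitals mark matches to letters searched on both strands: CCGGAAG (the core of ETS factor sites), GCATGCGC (the core of NRF1 sites), AAGATGGCG (YY1) and CACGTG (the E-box of MYC and its relatives).
Mrps27 at chr13:99344686-99344785, plus strand, lower, ETS letters: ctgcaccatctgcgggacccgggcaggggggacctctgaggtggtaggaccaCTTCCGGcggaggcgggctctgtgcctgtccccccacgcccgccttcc
Mrpl3 at chr9:105053168-105053267, plus strand, lower, ETS letters: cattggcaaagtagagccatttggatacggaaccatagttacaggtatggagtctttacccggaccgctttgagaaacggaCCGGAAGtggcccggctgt
Mrps22 at chr9:98601680-98601779, minus strand, lower, ETS letters: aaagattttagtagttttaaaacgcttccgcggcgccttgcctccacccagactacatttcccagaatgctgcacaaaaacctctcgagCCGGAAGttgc
Mrpl9 at chr3:94443236-94443335, plus strand, lower, overlapping NRF1 letters on both strands: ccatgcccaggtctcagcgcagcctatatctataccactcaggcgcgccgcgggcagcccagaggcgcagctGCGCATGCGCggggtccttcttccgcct
Mrpl36 at chr13:73330909-73331008, plus strand, lower, E-box and YY1 letters: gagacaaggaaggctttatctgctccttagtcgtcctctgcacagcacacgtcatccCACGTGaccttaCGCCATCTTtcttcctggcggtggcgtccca
Mrpl27 at chr11:94653691-94653790, plus strand, not called, ETS letters: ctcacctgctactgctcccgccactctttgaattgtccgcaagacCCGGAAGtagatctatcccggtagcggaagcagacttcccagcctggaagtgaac
Mrpl33 at chr5:31613851-31613950, plus strand, not called, NRF1 letters: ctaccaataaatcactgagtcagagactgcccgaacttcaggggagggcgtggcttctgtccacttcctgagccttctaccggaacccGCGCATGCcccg

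In windows of 300 bases around the start, which were at hand for 68 of the 77 members, the ETS letters stood in 25 members (36.8%), against 19.9% of the 9717 tested genes with a window and 9.93% of all 27025 windows. The NRF1 letters stood in 8 members (11.8%) against 5.94% and 3.05%, the YY1 letters in 8 members (11.8%) against 3.53% and 1.64%, and the E-box in 5 members (7.35%) against 11.8% and 8.09%. The ETS letters stood in 11 of 32 members lower in all 4 comparisons (34.4%) and in 6 of 15 called in none (40%). The NRF1 letters stood in 4 of these 32 (12.5%) and 2 of these 15 (13.3%), the YY1 letters in 6 (18.8%) and 1 (6.67%), and the E-box in 3 (9.38%) and 2 (13.3%). These are counts of letters, with no test, and no binding was measured here.

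As a group, the members took a smaller share of all counted reads with EPZ5676 and MI-2-2 than in the other 3 conditions. The share was 0.222% and 0.248% in the EPZ5676 libraries and 0.234% and 0.227% in the MI-2-2 libraries, where DMSO had 0.371% and 0.442%, MM-401 0.390% and 0.398%, and iBET 0.325% and 0.365%. After TMM scaling (edgeR's trimmed mean of M-values) the summed level was 3873 ± 628 CPM in DMSO (SD, n = 2), 3806 ± 97.6 for MM-401, 3346 ± 284 for iBET, 2515 ± 318 for EPZ5676 and 2430 ± 16.3 for MI-2-2. Every EPZ5676 and MI-2-2 library lay below every library of the other conditions, both in the share of reads and in the summed level. In these bulk samples, fewer cells of a type and less RNA per cell cannot be told apart.

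**Figure D1:**
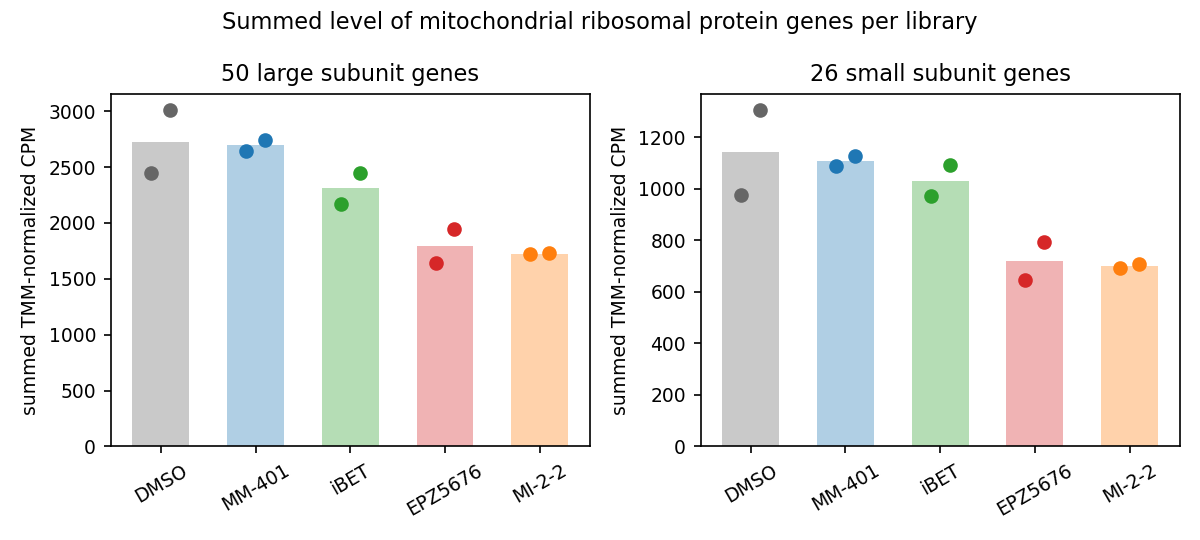
Summed level (TMM-normalized CPM, y axis) of the 50 large subunit genes (left) and the 26 small subunit genes (right) in each of the 5 conditions (x axis); bars are means and points the 2 libraries of a condition. The large subunit sum was 1640 to 1944 CPM in the EPZ5676 and MI-2-2 libraries and 2171 to 3009 CPM in the other 6, and the small subunit sum was 647.4 to 792.4 CPM against 970.4 to 1305 CPM.

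Both subunits carried the difference. The large subunit sum was 2448 and 3009 CPM in DMSO, 1640 and 1944 CPM with EPZ5676, and 1721 and 1728 CPM with MI-2-2. The small subunit sum was 977.9 and 1305 CPM in DMSO, 647.4 and 792.4 CPM with EPZ5676, and 694.4 and 709.8 CPM with MI-2-2.

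With the DOT1L inhibitor EPZ5676, 53 of the 77 members were lower than in DMSO at an adjusted p below 0.05 (edgeR quasi-likelihood test, Benjamini-Hochberg over the 12971 genes tested) and none was higher. Among all genes tested, 19.4% were called lower and 18.7% higher. The median member fell by 0.66 on the log2 scale, a change of -36.9%, where the median over all genes tested was -0.06, and 74 of 77 members had a fitted value below 0. A total of 33 of 50 large subunit genes and 20 of 26 small subunit genes were called lower, with medians of -0.62 and -0.77. In the large subunit, 20 of 30 members of families shared with bacteria and 13 of 20 mitochondria-specific members were called, and in the small subunit 12 of 16 and 8 of 10. The count was 37 without DMSO replicate 2, 59 without DMSO replicate 1 and 22 without EPZ5676 replicate 1.

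The MENIN blocker MI-2-2 gave nearly the same picture. Against DMSO, 55 members were lower and none higher, where 21.2% of all genes tested were called lower and 20.2% higher. The median member fell by 0.69, a change of -37.9%, where the median over all genes tested was -0.05. The calls comprised 35 of 50 large subunit genes, with a median of -0.68, and 20 of 26 small subunit genes, with a median of -0.74. The count was 37 without DMSO replicate 2, 30 without MI-2-2 replicate 1 and 22 without MI-2-2 replicate 2. Both comparisons used the same DMSO libraries, and 48 members (62.3%) were called lower in both, beside 16.3% of all genes tested. Scaling by total counts in place of TMM moved the median of all genes tested to -0.23 for EPZ5676 and -0.21 for MI-2-2, and the member median lay 0.61 and 0.63 below that of all genes with either scaling. In fits of only the 4 libraries compared, the calls that remained were Mrpl19, Mrpl38 and Mrps28 for EPZ5676, and the same 3 with Mrpl13 for MI-2-2.

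Setting the same 2 inhibitors against MM-401 takes the DMSO libraries out of the comparison, though they stayed in the fit. EPZ5676 had 42 members lower and none higher than MM-401, against 16.6% and 16.7% of all genes tested, with a member median of -0.61 where all genes had 0.01. MI-2-2 had 50 members lower and none higher, against 17.6% and 18% of all genes tested, with a member median of -0.66 where all genes had 0.01. When the DMSO libraries were left out of the fit altogether, the counts were 57 and 60. The EPZ5676 count was 13 without either MM-401 library and 17 without EPZ5676 replicate 1, and the MI-2-2 count was 17 to 28 when any 1 of its 4 libraries was left out, so the number of calls leans on having both libraries of each group. The ratio of single libraries nonetheless kept its sign, since the median member lay below 0 in each of the 4 library pairs of each comparison, at -0.47 to -0.76 for EPZ5676 and -0.62 to -0.68 for MI-2-2.

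**Figure D2:**
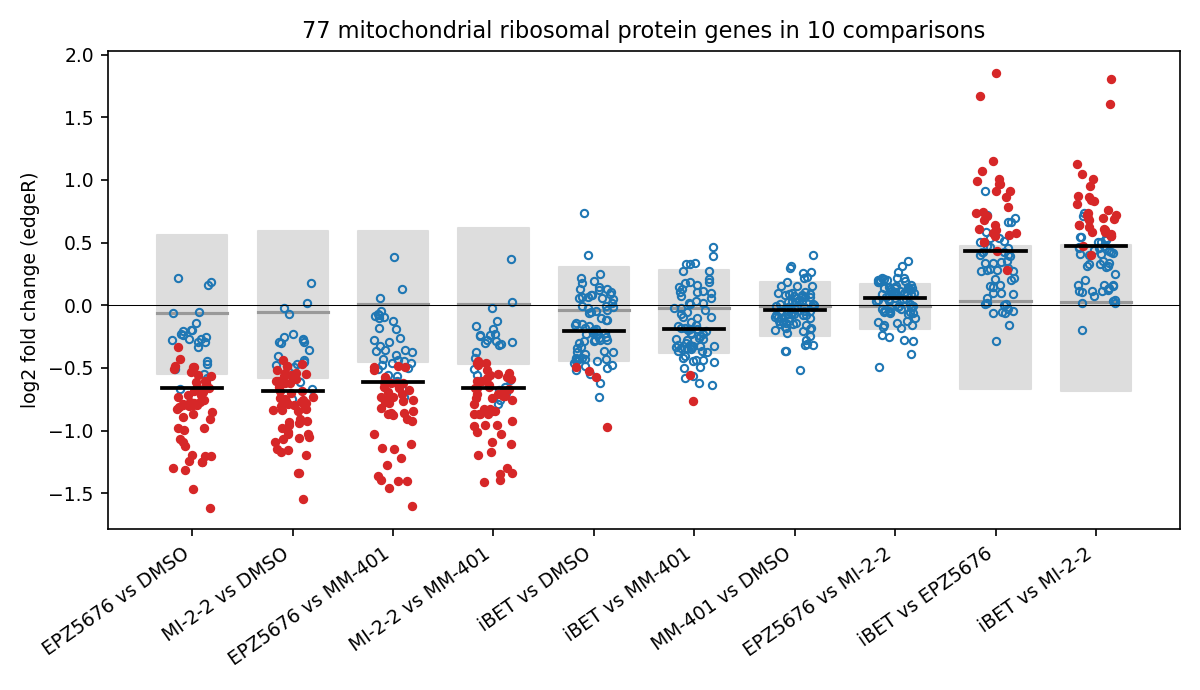
Log2 fold change (edgeR, y axis) of the 77 genes in the 10 comparisons (x axis); each point is a gene, filled red where the adjusted p was below 0.05 and open blue otherwise, the black line is the median of the 77, and the grey box and line are the quartiles and median of all genes tested. The medians sat at -0.66 and -0.69 for EPZ5676 and MI-2-2 against DMSO, at -0.20 for iBET, and at -0.04 for MM-401.

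The largest fall against DMSO, with EPZ5676 as with MI-2-2, was in Mrps28, which encodes an S1-family protein of the small subunit. It had 26.05 and 39.5 CPM in DMSO, 27.3 and 31.5 with MM-401 and 31.0 and 37.1 with iBET, where EPZ5676 gave 9.17 and 12.2 and MI-2-2 11.2 and 11.2. The 4 EPZ5676 and MI-2-2 libraries thus held at most 12.2 CPM where the other 6 held at least 26.05. Its log2 fold change against DMSO was -1.61 ± 0.24 (SE, n = 2 libraries per group) with EPZ5676 (adjusted p = 0.00229) and -1.55 ± 0.24 with MI-2-2 (adjusted p = 0.00241).

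Mrpl38, a mitochondria-specific protein of the large subunit, had the smallest adjusted p of the members with EPZ5676. It had 46.96 and 51.6 CPM in DMSO, 46.7 and 44.9 with MM-401, 34.9 and 35.9 with iBET, 17.0 and 18.6 with EPZ5676, and 23.7 and 19.3 with MI-2-2. The 5 conditions kept an order without overlap between DMSO or MM-401 at the top, iBET in the middle and EPZ5676 or MI-2-2 at the bottom. The log2 fold change against DMSO was -1.47 ± 0.14 with EPZ5676 (adjusted p = 0.00063), -1.20 ± 0.14 with MI-2-2 (adjusted p = 0.000993) and -0.48 ± 0.14 with iBET, which missed the threshold (adjusted p = 0.0612).

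Mrpl12 encodes the stalk protein that recruits translation factors to the ribosome and is also known to bind the mitochondrial RNA polymerase. Its DMSO libraries lay far apart, at 75.8 and 139.2 CPM, while MM-401 gave 111.0 and 115.5 CPM, EPZ5676 40.0 and 53.4, MI-2-2 41.1 and 43.98, and iBET 69.7 and 81.8. The EPZ5676 and MI-2-2 libraries were below every other library. The log2 fold change against DMSO was -1.20 ± 0.27 with EPZ5676 (adjusted p = 0.0108, and 0.0701 without EPZ5676 replicate 1) and -1.34 ± 0.27 with MI-2-2 (adjusted p = 0.00663).

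Mrpl15 and Mrpl16 belong to large subunit families shared with bacteria. Mrpl15 had 74.5 and 120.8 CPM in DMSO and between 38.5 and 43.1 CPM in the 4 EPZ5676 and MI-2-2 libraries, with log2 fold changes of -1.24 ± 0.21 (adjusted p = 0.00331) and -1.34 ± 0.21 (adjusted p = 0.00233). Mrpl16 had 75.7 and 81.7 CPM with MM-401, above both DMSO libraries (45.25 and 73.7 CPM), and 23.5 to 34.99 CPM with EPZ5676 and MI-2-2. Its fall was steepest against MM-401, with log2 fold changes of -1.60 ± 0.27 for EPZ5676 (adjusted p = 0.00428) and -1.34 ± 0.26 for MI-2-2 (adjusted p = 0.00724, and 0.0523 without MI-2-2 replicate 1).

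In the small subunit, Mrps2 belongs to a family shared with bacteria, and Mrps27 is a mitochondria-specific protein with pentatricopeptide repeats. Mrps2 had 44.98 and 70.0 CPM in DMSO, 24.0 and 22.3 with EPZ5676, and 28.8 and 31.9 with MI-2-2, with log2 fold changes of -1.31 ± 0.21 (adjusted p = 0.00262) and -0.92 ± 0.20 (adjusted p = 0.00905). Mrps27, whose start is printed above, had 28.1 and 44.9 CPM in DMSO, 14.2 and 15.4 with EPZ5676, and 17.2 and 17.7 with MI-2-2, with log2 fold changes of -1.30 ± 0.24 (adjusted p = 0.00464) and -1.06 ± 0.23 (adjusted p = 0.0089). In both genes every EPZ5676 and MI-2-2 library was below every DMSO and MM-401 library.

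The mouse genome has 3 genes of the S18 family, whose products take different places in the ribosome, and they did not move alike. Mrps18b, of the small subunit, fell most, from 25.1 and 36.9 CPM in DMSO to 12.5 and 13.65 with EPZ5676 and 12.01 and 16.0 with MI-2-2, with log2 fold changes of -1.25 ± 0.23 (adjusted p = 0.00478) and -1.14 ± 0.23 (adjusted p = 0.00596). Mrps18a, whose product sits in the large subunit despite its name, had 37.3 and 37.4 CPM in DMSO, 22.3 and 25.2 with EPZ5676 and 24.45 and 27.7 with MI-2-2, with log2 fold changes of -0.65 ± 0.16 (adjusted p = 0.0148) and -0.52 ± 0.16 (adjusted p = 0.0317). The first call was lost without EPZ5676 replicate 1 (adjusted p = 0.0805), and the second without DMSO replicate 2 (0.062) or either MI-2-2 library (0.159 and 0.0784). Mrps18c, closest to the bacterial S18 protein, had 33.4 and 36.5 CPM in DMSO, 30.3 and 50.8 with EPZ5676, and 32.1 and 38.5 with MI-2-2. Its groups overlapped, with log2 fold changes of 0.21 (95% interval -0.37 to 0.79, adjusted p = 0.526) and 0.02 (-0.56 to 0.60, adjusted p = 0.966), and the sign of each turned when 1 library was left out. Differences between the 3 genes were not tested.

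Of the other members on the fixed list, Mrps30, which also belongs to the large subunit despite its name, had 49.0 and 55.5 CPM in DMSO and 29.2 to 30.5 CPM with EPZ5676 and MI-2-2, with log2 fold changes of -0.80 ± 0.13 (adjusted p = 0.00305) and -0.84 ± 0.13 (adjusted p = 0.00241). Mrpl36, a large subunit protein of a bacterial family, had 54.4 and 70.2 CPM in DMSO and 34.8 to 43.8 CPM with both inhibitors, with log2 fold changes of -0.66 ± 0.17 (adjusted p = 0.0201) and -0.76 ± 0.17 (adjusted p = 0.0105). The first was lost without DMSO replicate 2 (adjusted p = 0.0696) or EPZ5676 replicate 1 (0.111), the second without either MI-2-2 library (0.0558 and 0.0612). Mrps12, the protein of the decoding centre, had 30.7 and 43.2 CPM in DMSO and 21.4 to 26.6 CPM with both inhibitors, with log2 fold changes of -0.61 ± 0.20 (adjusted p = 0.0419) and -0.70 ± 0.20 (adjusted p = 0.0235). Neither Mrps12 call held without DMSO replicate 2 (adjusted p = 0.181 and 0.103), nor without either library of the inhibitor.

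**Figure D3:**
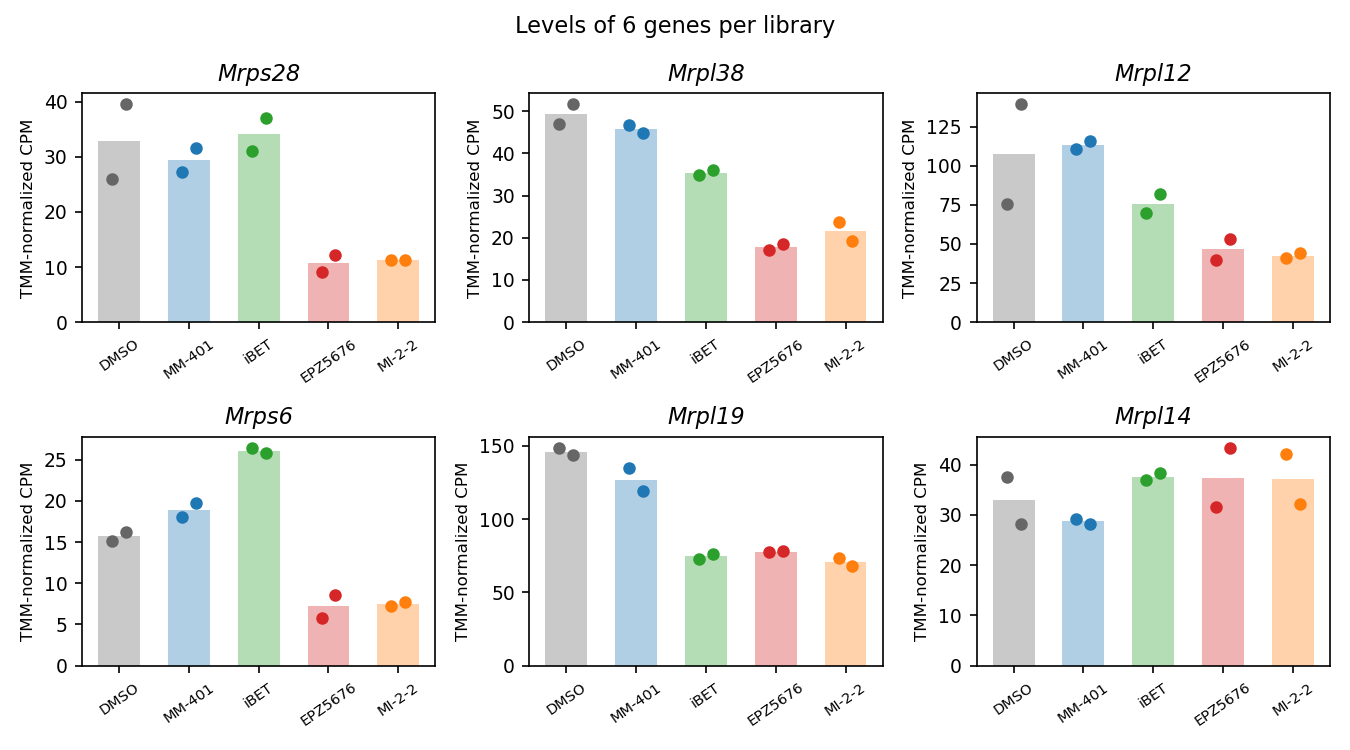
Level (TMM-normalized CPM, y axis) of 6 members in the 5 conditions (x axis); bars are means and points the 2 libraries of a condition. Mrps28, Mrpl38 and Mrpl12 were low in the EPZ5676 and MI-2-2 libraries, Mrps6 was low there and highest with iBET (25.75 and 26.4 CPM), Mrpl19 was low in all 6 EPZ5676, MI-2-2 and iBET libraries (at most 78.2 CPM against at least 119.0), and the groups of Mrpl14 overlapped.

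In all, 39 members, 26 of the large and 13 of the small subunit, were called lower in all 4 comparisons of EPZ5676 and MI-2-2 with DMSO and MM-401, which share libraries, beside 11.6% of all genes tested. Apart from those described, they are Mrpl1, Mrpl2, Mrpl3, Mrpl9, Mrpl11, Mrpl13, Mrpl17, Mrpl19, Mrpl21, Mrpl34, Mrpl35, Mrpl37, Mrpl39, Mrpl42, Mrpl44, Mrpl47, Mrpl49, Mrpl50, Mrpl57, Mrps5, Mrps6, Mrps10, Mrps22, Mrps25, Mrps26, Mrps34 and Mrps35. Mrpl28, Mrpl30, Mrpl52, Mrps9, Mrps14, Mrps16, Mrps17, Mrps24 and Mrps31 were called lower with both against DMSO and missed at least 1 of the calls against MM-401. With EPZ5676 alone the call against DMSO fell on 5 members (Mrpl4, Mrpl23, Mrpl43, Mrpl46 and Mrps7) and with MI-2-2 alone on 7 (Mrpl18, Mrpl22, Mrpl32, Mrpl40, Mrpl54, Mrpl55 and Mrps23), and none of these 12 differed between the inhibitors when they were compared directly.

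A total of 17 members were called with neither inhibitor against DMSO: Mrpl10, Mrpl14, Mrpl20, Mrpl24, Mrpl27, Mrpl33, Mrpl41, Mrpl45, Mrpl48, Mrpl51, Mrpl53, Mrps11, Mrps15, Mrps18c, Mrps21, Mrps33 and Mrps36. Mrpl51 and Mrpl53 apart, these 15 were not called against MM-401 either. Mrpl14, which lies at the interface of the subunits, had 37.5 and 28.3 CPM in DMSO, 31.5 and 43.4 with EPZ5676, and 42.2 and 32.2 with MI-2-2. Its log2 fold changes were 0.19 (95% interval -0.31 to 0.68) and 0.18 (-0.32 to 0.67), whose lower ends lie well above a 2-fold fall. For Mrpl10 the fall was small and closely bounded, at -0.20 (-0.42 to 0.02) and -0.07 (-0.29 to 0.15), while for Mrpl41 the spread was too wide to say, at -0.27 (-1.24 to 0.70) and -0.49 (-1.46 to 0.48). Mrpl41 was the only member with replicates over 2-fold apart, with 29.4 and 59.6 CPM in DMSO and 22.9 and 50.8 CPM with EPZ5676. Mrps36, the member that is no ribosome subunit, had 3.31 and 3.07 CPM in DMSO and 2.52 to 3.25 CPM with both inhibitors, with log2 fold changes of -0.14 ± 0.28 (adjusted p = 0.705) and -0.29 ± 0.28 (adjusted p = 0.425).

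**Figure D4:**
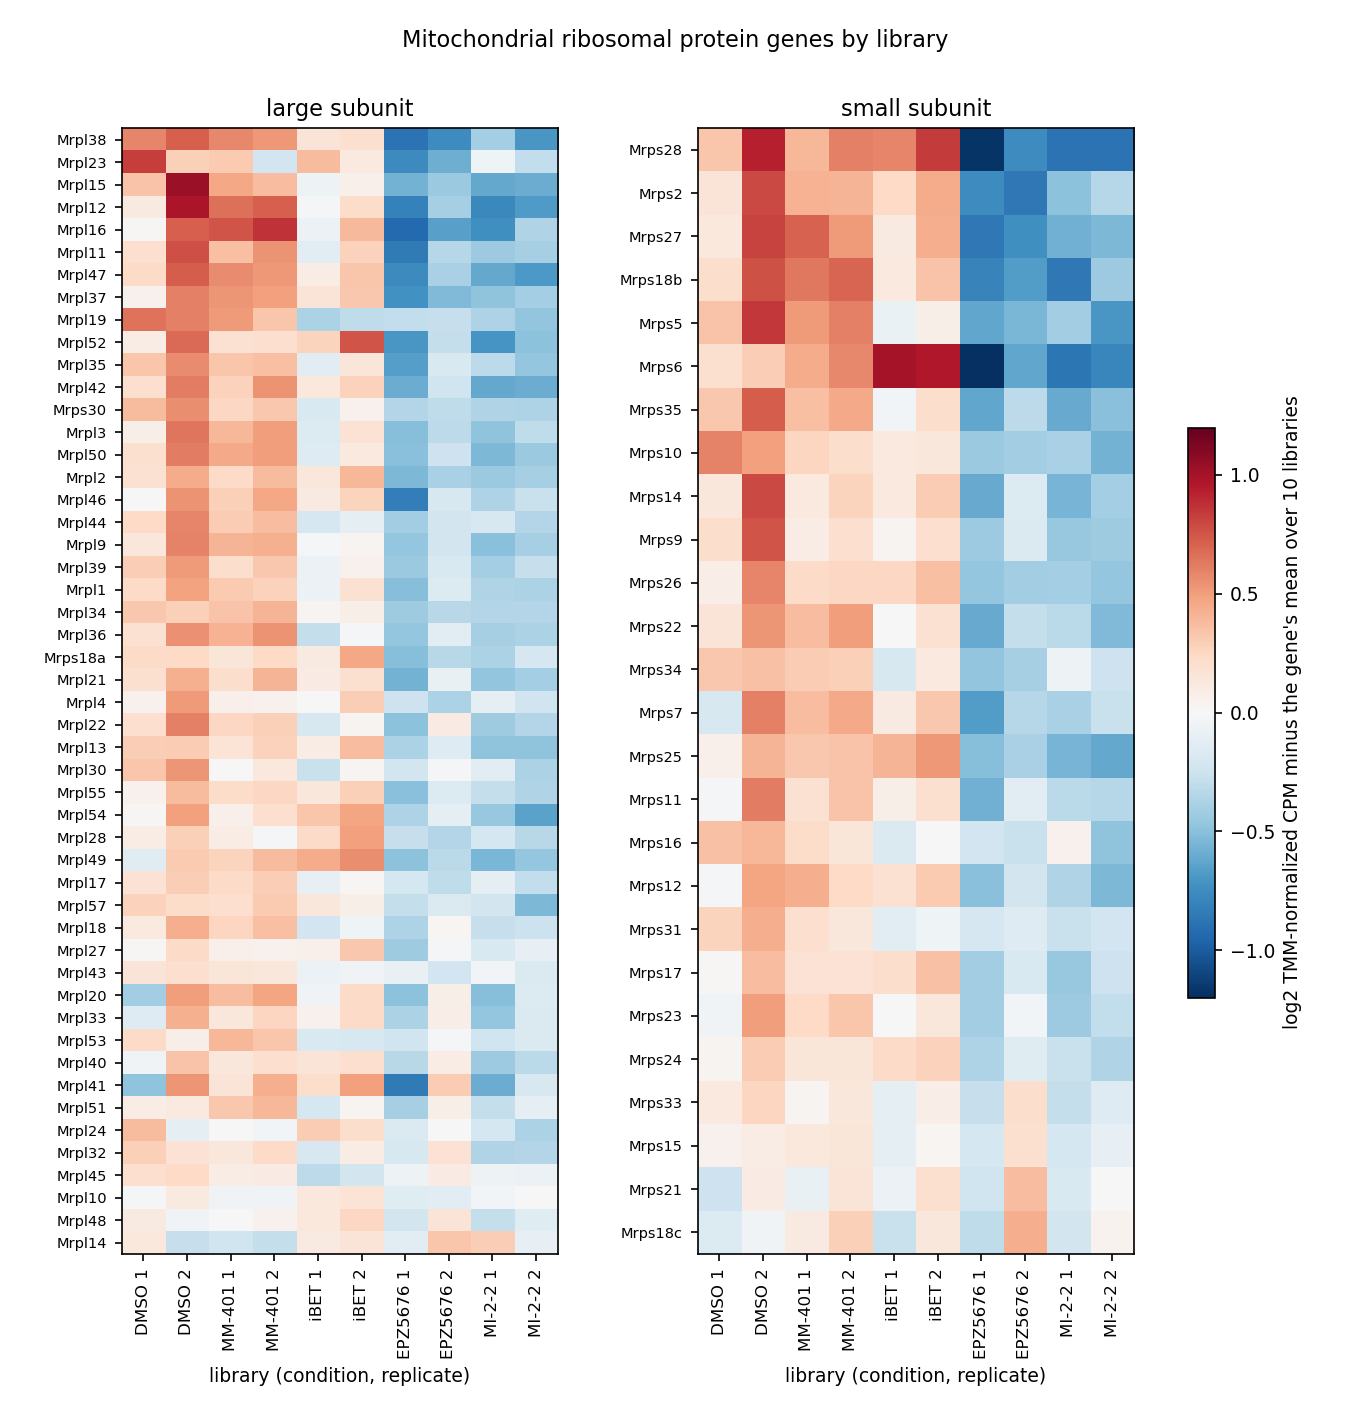
Log2 TMM-normalized CPM of each gene minus its mean over the 10 libraries (colour, red above and blue below the mean), for 50 large subunit genes (left) and 26 small subunit genes (right) in rows and the 10 libraries in columns; rows are sorted by the EPZ5676 to DMSO log2 fold change, from -1.47 (Mrpl38) and -1.61 (Mrps28) at the top to 0.19 (Mrpl14) and 0.21 (Mrps18c) at the bottom. Most rows are blue in the 4 EPZ5676 and MI-2-2 columns on the right, DMSO replicate 2 is redder than DMSO replicate 1, and EPZ5676 replicate 1 is bluer than EPZ5676 replicate 2.

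Replicates of 1 condition differed in the group as a whole. The median member was 0.34 higher on the log2 scale in DMSO replicate 2 than in replicate 1, 0.27 higher in EPZ5676 replicate 2 than in replicate 1 and 0.17 higher in iBET replicate 2 than in replicate 1, where MM-401 and MI-2-2 replicates differed by 0.06 and 0.03. Over all genes tested the same medians lay between -0.01 and 0.03. The difference between EPZ5676 and DMSO was larger than this spread in each of the 4 library pairs, in which the median member lay at -0.39 to -0.93, and 66 to 76 of 77 members were lower. For MI-2-2 the 4 pairs gave -0.53 to -0.88, with 72 to 76 members lower.

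EPZ5676 and MI-2-2 did not differ detectably from each other in any member. No member was called, where 0.00771% of all genes tested (1 gene) was called in each direction, the smallest adjusted p of a member was 0.737, and none had an unadjusted p below 0.05. DESeq2 also called none. The median log2 fold change of EPZ5676 over MI-2-2 was 0.06 and the largest in size was -0.50 in Mrpl23, the member with the fewest reads. The 95% interval of the difference lay within 2-fold either way for 75 of 77 members and within 1.5-fold for 45, so smaller differences are not excluded. For Mrps28 it was -0.62 to 0.49, for Mrpl38 -0.60 to 0.06 and for Mrpl12 -0.48 to 0.75.

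With iBET the members moved much less. Against DMSO, 4 members were lower and none higher, where 7.54% of all genes tested were called lower and 6.38% higher, beside 5.19% of the members. The median member was at -0.20, a change of -13.1%, where all genes tested had -0.04. The library pairs did not share a sign, with the median member between -0.44 and 0.08 over the 4 pairs. The calls were Mrpl19 and Mrpl45 lower with Mrpl49 and Mrps6 higher without DMSO replicate 2, 19 members without DMSO replicate 1, and Mrpl19 alone without either iBET library, and DESeq2 called 13.

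The 4 members called with all libraries in the fit were Mrpl19, Mrpl44, Mrpl45 and Mrps30, all of the large subunit, and Mrpl19 had the largest fall among them. Mrpl19, a protein of the bacterial L19 family, had 148.6 and 143.5 CPM in DMSO, 134.8 and 119.0 with MM-401, 72.8 and 76.4 with iBET, 77.3 and 78.2 with EPZ5676, and 73.4 and 68.0 with MI-2-2. It was lower by about the same amount with each of the 3 inhibitors, with log2 fold changes against DMSO of -0.97 ± 0.11 for iBET (adjusted p = 0.00313), -0.91 ± 0.11 for EPZ5676 (0.001) and -1.05 ± 0.11 for MI-2-2 (0.000674). Between iBET and EPZ5676 its difference was -0.06 (95% interval -0.30 to 0.18) and between iBET and MI-2-2 0.08 (-0.17 to 0.32). Exons of Mrpl19 overlap those of Gcfc2 on the opposite strand, and Gcfc2 was also called lower with EPZ5676 (log2 fold change -0.69 ± 0.20, adjusted p = 0.0284) and with MI-2-2 (-0.74 ± 0.20, adjusted p = 0.0206), but not with iBET (-0.18 ± 0.20, adjusted p = 0.562). Its levels were 24.7 and 24.3 CPM in DMSO, 17.8 and 12.5 with EPZ5676, 16.3 and 13.1 with MI-2-2, and 21.9 and 21.2 with iBET. The part of Gcfc2 reads in the Mrpl19 counts was not tested.

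Mrpl45, the protein that anchors the ribosome at the inner membrane, was lower with iBET and not called with EPZ5676 or MI-2-2. It had 61.7 and 63.6 CPM in DMSO, 57.2 and 57.5 with MM-401, 43.05 and 46.2 with iBET, 51.4 and 57.4 with EPZ5676, and 51.4 and 51.1 with MI-2-2. The log2 fold change was -0.49 ± 0.11 with iBET (adjusted p = 0.0242), -0.20 ± 0.11 with EPZ5676 (0.164) and -0.29 ± 0.11 with MI-2-2 (0.0604). Scaling by total counts brought the last 2 to adjusted p of 0.0182 and 0.00924, and the iBET call was lost without either iBET library (0.169 and 0.114), so these data do not set Mrpl45 apart between the inhibitors. Mrpl44, which has the fold of a ribonuclease III, had 69.0 and 87.7 CPM in DMSO and 51.0 and 54.1 with iBET, with a log2 fold change of -0.58 ± 0.15 (adjusted p = 0.0387). Mrps30 had 33.3 and 39.15 CPM with iBET, with a log2 fold change of -0.53 ± 0.13 (adjusted p = 0.036). The calls of Mrpl44 and Mrps30 were lost without DMSO replicate 2 (0.0642 and 0.0523) and without either iBET library.

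Against MM-401, iBET had 2 members lower, Mrpl19 and Mrpl53, and none higher, where 5.96% and 5.48% of all genes tested were called. Mrpl19 had a log2 fold change of -0.77 ± 0.11 (adjusted p = 0.00571), which passed 0.05 only with both iBET libraries and MM-401 replicate 1 in the fit (0.0562 to 0.0626 otherwise). Mrpl53, a mitochondria-specific protein of the large subunit, had 29.3 and 27.9 CPM with MM-401 and 19.5 and 19.5 with iBET, with a log2 fold change of -0.55 ± 0.15 (adjusted p = 0.047, and 0.197 to 0.244 when any 1 of the 4 libraries was left out). The fit without the DMSO libraries called 15 members and the fit of these 4 libraries alone 21, so the count depends on which libraries set the spread.

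The level with iBET was also set directly against those with EPZ5676 and MI-2-2. Against EPZ5676, 27 members were higher and none lower, where 18.5% of all genes tested were called higher and 19.1% lower, with a member median of 0.43 where all genes had 0.04. Against MI-2-2, 32 were higher and none lower, where 19.1% and 19.7% of all genes tested were called, with a member median of 0.48 where all genes had 0.03. The first count was 8 without EPZ5676 replicate 1, 16 without iBET replicate 1 and 6 without iBET replicate 2, and the second was 7 to 16 when iBET replicate 2, iBET replicate 1 or either MI-2-2 library was left out. The small subunit had 13 and 14 of its 26 members called and the large subunit 14 and 18 of its 50.

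Mrps6, of a small subunit family shared with bacteria, showed the largest of these differences. It had 15.15 and 16.25 CPM in DMSO, 18.0 and 19.75 with MM-401, 26.4 and 25.75 with iBET, 5.77 and 8.62 with EPZ5676, and 7.24 and 7.71 with MI-2-2. The 5 conditions fell into 3 tiers with no overlap, iBET above DMSO and MM-401 and these above EPZ5676 and MI-2-2. iBET was 3.62-fold above EPZ5676 (log2 fold change 1.86 ± 0.21, adjusted p = 0.000677) and 3.49-fold above MI-2-2 (1.803 ± 0.21, adjusted p = 0.000844). Against DMSO, its log2 fold change was -1.13 ± 0.21 with EPZ5676 (adjusted p = 0.00524), -1.07 ± 0.21 with MI-2-2 (0.00572) and 0.73 ± 0.20 with iBET, which missed the threshold (0.0514) and passed it without DMSO replicate 2 and with total-count scaling. Exons of Mrps6 overlap those of Slc5a3 on the same strand, so reads on shared exons cannot be assigned by strand. Slc5a3 itself had 34.97 and 8.63 CPM in DMSO, 24.2 and 16.8 with iBET, 8.98 and 5.46 with EPZ5676, and 11.9 and 7.52 with MI-2-2. Its fitted values had the sign of those of Mrps6 where Mrps6 was called, at -1.60 ± 0.61 (adjusted p = 0.0696) for EPZ5676 and -1.17 ± 0.59 (0.148) for MI-2-2 against DMSO, and at 1.504 ± 0.60 (0.084) and 1.08 ± 0.59 (0.183) for iBET against EPZ5676 and MI-2-2, none of them past the threshold. For iBET against DMSO it was -0.09 ± 0.58 (adjusted p = 0.935). The part of Slc5a3 reads in the Mrps6 counts was not tested.

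Mrps28 was next, 3.18-fold above EPZ5676 (log2 fold change 1.67 ± 0.24, adjusted p = 0.00181) and 3.04-fold above MI-2-2 (1.61 ± 0.24, adjusted p = 0.00219) with iBET, whose 31.0 and 37.1 CPM lay within the range of the DMSO libraries. Mrps2 was 2.22-fold and Mrps27 2.11-fold above EPZ5676 (adjusted p = 0.00409 and 0.00939), the second not called without EPZ5676 replicate 1 (0.0564) or iBET replicate 2 (0.0706). Against MI-2-2, Mrpl52 was 2.18-fold higher, at 15.25 and 21.3 CPM against 7.76 and 8.99 (adjusted p = 0.0139, lost without either MI-2-2 library or iBET replicate 2), and Mrps25 2.07-fold, at 48.4 and 52.2 CPM against 24.8 and 23.85 (adjusted p = 0.00164).

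With MM-401 no member was called against DMSO, and 0% of all genes tested was called in either direction by edgeR. The smallest adjusted p of a member was 0.445, 1 member had an unadjusted p below 0.05 among 1450 genes of all, and DESeq2 called no member. The median member was at -0.04, a change of -2.53%, where all genes tested had -0.01. The library pairs did not share a sign. The median member lay at 0.07 and 0.13 against DMSO replicate 1, and at -0.18 and -0.16 against DMSO replicate 2. The 95% interval lay within 2-fold either way for 73 of 77 members and within 1.5-fold for 48, so a fall of the size seen in the largest movers with EPZ5676 lay outside the interval for most members. Without DMSO replicate 1, Mrpl15 and Mrps9 were called lower.

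Levels were compared between members only per kilobase of transcript. The mean over the 10 libraries, in TMM-normalized CPM per kilobase of the principal transcript, was highest for Mrpl33 (158), Mrpl20 (84.8) and Mrps21 (74.35), whose products belong to families shared with bacteria, and lowest for Mrpl23 (1.498), Mrpl48 (3.96) and Mrps36 (4.17). The median over the 77 members was 23.3. None of these 6 genes but Mrpl23 was called with EPZ5676 or MI-2-2 against DMSO, and Mrpl23, with 1.75 and 1.20 CPM in DMSO and 0.58 and 0.66 CPM with EPZ5676, was called with EPZ5676 alone (log2 fold change -1.25 ± 0.40, adjusted p = 0.0398). Pseudogenes named after Mrpl23, Mrpl48 and Mrps36 are annotated, and how reads shared with them were counted is not stated, so these 3 levels are uncertain.

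Genes that serve the mitochondrial ribosome were also lower with EPZ5676 and MI-2-2. Against DMSO, 5 of the 6 subunits that carry other names were lower with EPZ5676 and 5 with MI-2-2, among them Gadd45gip1 (log2 fold changes -1.13 and -1.06) and Ptcd3 (-0.94 and -1.12), while Aurkaip1 was higher with EPZ5676 (0.58 ± 0.16, adjusted p = 0.0251) and not called with MI-2-2 (0.35, adjusted p = 0.113). Of 20 mitochondrial aminoacyl-tRNA synthetases and amidotransferase subunits, which charge the tRNAs, 16 and 13 were lower and none higher, with medians of -0.82 and -0.76, and Ears2, the glutamyl-tRNA synthetase, had the largest fall (-1.53 and -1.58). Of 15 translation factors, 12 and 12 were lower and none higher, among them the elongation factors Tsfm (-1.24 and -1.07) and Tufm (-0.91 and -0.76), and Mtif3 and Mtrf1l were not called with either. Of 24 assembly factors, 12 and 12 were lower and 1 higher in each, with medians of -0.45 and -0.40. The higher one was Rbfa, which helps mature the small subunit (0.61 ± 0.10 and 0.61 ± 0.10, adjusted p = 0.00376 and 0.0034). Of 8 genes for the replication and transcription of mitochondrial DNA, 5 and 6 were lower, among them the RNA polymerase Polrmt (-1.39 and -1.07). These shares stand beside 19.4% and 21.2% of all genes tested that were called lower. Without DMSO replicate 2, where 16.6% and 17.2% of all genes were called lower, the counts lower with EPZ5676 and MI-2-2 were 4 and 4 of the 6 subunits, 14 and 12 of the synthetases, 8 and 9 of the translation factors, 8 and 10 of the assembly factors, and 3 and 4 of the replication and transcription genes. Against MM-401, where 16.6% and 17.6% of all genes were called lower, they were 3 and 3, 13 and 9, 11 and 10, 9 and 9, and 4 and 6, in the same order. Rbfa was also higher without DMSO replicate 2 (0.72 and 0.73, adjusted p = 0.00295 and 0.00256) and against MM-401 (0.52 and 0.52, adjusted p = 0.00864 and 0.00777). The calls of Aurkaip1 (adjusted p = 0.0509) and Tufm (0.106 and 0.237) were lost without DMSO replicate 2. Aurkaip1, Rbfa and the other genes named here were picked after their values were seen.

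Other ribosomal and mitochondrial genes were counted in the same way. Of 80 cytosolic ribosomal protein genes tested, 20 (25%, near the 19.4% of all genes tested) were lower and 1 higher with EPZ5676 (median -0.39), against 62 lower (77.5%, beside 21.2% of all) and 1 higher with MI-2-2 (median -0.76), and the higher one in both was Rpl3l, a paralog known from striated muscle. Of 79 nuclear genes of oxidative phosphorylation, which work with the products of the mitochondrial ribosome, 24 (30.4%) were lower with EPZ5676 (median -0.29) and 35 (44.3%) with MI-2-2 (median -0.43), and none higher. Without DMSO replicate 2 the cytosolic counts lower were 13 and 50 and the oxidative phosphorylation counts 15 (19%) and 18 (22.8%), where all genes gave 16.6% and 17.2%. Against MM-401 they were 11 (13.8%) and 34 (42.5%), and 19 (24.1%) and 20 (25.3%), where all genes gave 16.6% and 17.6%. Between EPZ5676 and MI-2-2 the median of the cytosolic list was 0.40, with 0 genes called, where the mitochondrial members had a median of 0.06 and none called. Whether the lists differ from each other was not tested. With iBET the assembly factor Nsun4, which methylates the ribosomal RNA of the small subunit, was higher than in DMSO (1.45 ± 0.20, adjusted p = 0.00594), as was the synthetase Wars2 (0.80 ± 0.17, adjusted p = 0.0214), both also without DMSO replicate 2 (adjusted p = 0.00931 and 0.0179), and the medians of the 7 lists lay between -0.33 and -0.02.

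The members are spread over the genome, with gene models on 17 chromosomes (GENCODE M21, GRCm38) and at most 10 on 1 of them, chromosome 11. Mrps28 lies at chr3:8802146-8923918 on the minus strand, Mrpl38 at chr11:116131817-116138868 on the minus strand, Mrpl12 at chr11:120484613-120489065 on the plus strand, Mrpl19 at chr6:81957851-81965958 on the minus strand and Mrps6 at chr16:92058270-92112227 on the plus strand. A total of 33 members have the start of another coding gene on the opposite strand within 1000 bases of their own. Of the 31 such neighbours that are no members, 29 were tested, and 7 were lower and 3 higher with EPZ5676 (median -0.23) and 9 lower and 4 higher with MI-2-2 (median -0.35). The neighbours' shares lower, 24.1% and 31%, stand beside 19.4% and 21.2% of all genes tested. Of the 33 members themselves, 21 (63.6%) were lower with EPZ5676, with a median of -0.61. Without DMSO replicate 2, the median neighbour was at -0.015 with EPZ5676 and -0.24 with MI-2-2, where all genes tested had -0.005 and 0.0005. The median of the 33 members was then -0.43 and -0.46. Against MM-401, 7 (24.1%) and 11 (37.9%) neighbours and 19 (57.6%) and 23 (69.7%) of the 33 members were lower, beside 16.6% and 17.6% of all genes tested. Exons of 22 members overlap those of another counted gene, on the same strand in 3 (Mrps6, Mrps24 and Mrps34) and on the opposite strand in 19. Whether the counting used strand is not stated, so reads of these pairs may be shared.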

How the data were processed

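Read counts per gene were deposited for 10 libraries of TruSeq RNA sequencing, as whole numbers that the authors did not normalize. Per the labels, the submitters' processing notes name TopHat2, Subread, DESeq and the mm9 build, without role or version. The sources used here give no annotation, strand setting or treatment of reads matching several genes.

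Samples were grouped from their labels. Genes were filtered with filterByExpr (12971 kept), scaled by TMM and tested with glmQLFit and glmQLFTest of edgeR 4.0.16 in R 4.3.3, in 1 fit of all 10 libraries with 1 coefficient per condition. P-values were adjusted (Benjamini-Hochberg) over all genes tested in a comparison, and 0.05 was the threshold. The standard error is the log2 fold change divided by the square root of F, and intervals use the test's degrees of freedom. The fit was also run on simulated counts with changes planted in some genes. These counts held no split like that between the DMSO libraries, so they do not test the fit for it. A read in the shallowest library was worth 0.049 CPM, and library totals and replicate number limit precision for low genes.

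Named genes were, for each comparison, the 4 largest rises and 4 largest falls among members past the threshold whose libraries did not overlap and whose higher group had at least 5 CPM, with a short fixed list of members and the 3 highest and 3 lowest per kilobase. The members and lists were chosen with earlier results of these data known. Other genes were picked after their values were seen. Lists are described by counts and medians, with no set test.

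Gene models and lengths came from GENCODE M21 and start sites from RefSeq, both on GRCm38, matched by symbol, while the counts refer to mm9. Only sequences and positions of GRCm38 are printed. Alternatives were DESeq2 size factors, total-count scaling, 2 other filters, DESeq2 1.42.0, a replicate block, fits of fewer libraries, a 2-fold rule on mean CPM, and leaving out each library.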

Additional observations from a re-analysis of the deposited data

How the results depend on the processing

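The direction of the member median was kept under all alternatives run for 8 of the 10 comparisons, MM-401 against DMSO (-0.17 to 0.10) and EPZ5676 against MI-2-2 (-0.08 to 0.18) being the exceptions. In fits of only the 4 libraries compared, members called numbered 3 for EPZ5676 and 4 for MI-2-2 against DMSO, 0 for iBET against DMSO and 21 for iBET against MM-401. By a 2-fold rule on mean CPM they numbered 20, 20 and 0 for EPZ5676, MI-2-2 and iBET against DMSO. Total-count scaling gave 8 for iBET against DMSO, 4 for iBET against MM-401, 51 for iBET against EPZ5676 and 49 for iBET against MI-2-2. A minimum of 5 CPM gave 7 and 5 for iBET against DMSO and MM-401, DESeq2 13 and 6, and no filter 1 for iBET against MM-401. The fit without the DMSO libraries gave 15 for iBET against MM-401 and 42 for iBET against EPZ5676. Single members were followed only if among the largest rises or falls of a comparison or, against DMSO, on the fixed list. Other members may also turn sign. Among those followed, values that were not called turned sign in 3 cases. Mrps18c did so for MI-2-2 against DMSO with total-count scaling (-0.14). Mrps12 did so for iBET against DMSO with no filter (0.0072) and with the replicate block (0.0038). The cause was not tested.

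With the replicate number as a block, members called numbered 15 for iBET against DMSO (13 lower and 2 higher), 10 for iBET against MM-401 and 41 for iBET against EPZ5676, and 59 and 62 for EPZ5676 and MI-2-2 against DMSO. The labels tie replicates by number alone, with 2 pairs a comparison. Their deviations correlated at 0.278 to 0.666 in all 10 pairs of groups. Whether libraries of the same number were handled together is not stated and was not tested.

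When 1 library was left out, members called ranged over 22 to 59 for EPZ5676 against DMSO, 22 to 61 for MI-2-2 against DMSO, 1 to 19 for iBET against DMSO, 0 to 2 for MM-401 against DMSO, 13 to 35 for EPZ5676 against MM-401, 17 to 28 for MI-2-2 against MM-401, 0 to 1 for iBET against MM-401, 6 to 20 for iBET against EPZ5676 and 7 to 16 for iBET against MI-2-2. Among members on the fixed list or with the largest rises or falls, some log2 fold changes against DMSO that were not called turned sign. Other members were not followed. These were Mrps18c (-0.20 to 0.54) and Mrps36 (-0.34 to 0.029) for EPZ5676, and Mrps18c (-0.12 to 0.14) for MI-2-2. For iBET they were Mrps12 (-0.22 to 0.26), Mrps18a (-0.12 to 0.24), Mrps18b (-0.53 to 0.024), Mrps18c (-0.16 to 0.24) and Mrps36 (-0.10 to 0.21). For MM-401 they were Mrpl12 (-0.29 to 0.56), Mrps12 (-0.14 to 0.34), Mrps18a (-0.089 to 0.0050), Mrps18b (-0.095 to 0.44) and Mrpl36 (-0.069 to 0.28). The counts of related genes and the medians of neighbours and their members without DMSO replicate 2 were added after seeing the data. A group left with 1 library was assumed to vary like the others. Depth limits low genes most, Mrpl23 having 246 reads over the 10 libraries.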
